A study of Mus musculus with 15 samples.

Results

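Mme, Cpa4, Dpp4 and Anpep encode 4 peptidases that trim the ends of peptides or cut short peptides outside the cell. They were measured in mouse ventral prostate epithelial cells of the FVB strain on 15 arrays in 5 groups of 3. Mme and Cpa4 were chosen by their high levels in cells carrying NeuT, and Dpp4 and Anpep were taken with them as other peptidases. Each gene had 1 probe set assigned to it alone, and these 4 genes stand among 19938 genes with such a probe set. Controls were primary epithelial cultures that received no oncogene. Each of the other groups held lines made from such cultures by transduction with c-myc (Myc), neuT (NeuT), ha-ras (Ras) or v-src (Src), and the series' design text gives 3 lines for each oncogene. NeuT is an activated Erbb2, a growth factor receptor with tyrosine kinase activity. Ras is a GTPase downstream of such receptors, v-src encodes a cytoplasmic tyrosine kinase, and Myc is a transcription factor. The lines were grown in DMEM with 10% serum, whereas control cultures grew in a primary prostate epithelial medium until the night before harvest, when they received the serum medium, so that medium history and oncogene cannot be told apart in any comparison with control. All cells were collected at 85 to 90% confluence, and the promoter that drives each transduced gene is not given in the sources used here.

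Mme encodes neprilysin, also called CD10, a zinc endopeptidase anchored in the cell membrane. It degrades small signalling peptides such as endothelin, bradykinin, natriuretic peptides and bombesin-like peptides, and it is known in the prostate as a surface enzyme of epithelial cells. Cpa4 encodes a secreted carboxypeptidase that removes hydrophobic residues from the C-terminal end of peptides, and it was first described in prostate cancer cells. Dpp4, or CD26, is a membrane serine peptidase that removes dipeptides from the N-terminal end of chemokines and incretins, and Anpep, or CD13, is a membrane zinc aminopeptidase. Mme, Dpp4 and Anpep are also abundant on the brush border of kidney proximal tubules.

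Control replicate 3 stood apart from the other control arrays and carried kidney transcripts, so control levels are those of control replicates 1 and 2, and all tests used the other 14 arrays. In that array 12 of 12 kidney tubule markers were at least 2-fold above the mean of the other controls, whereas control replicates 1 and 2 had 3 genes at least 2-fold apart. Over the 14 arrays used, 0 of the 12 kidney markers reached 6.47 (log2) in any group mean, which is the median of all gene values. Control cultures carried epithelial keratins, with Krt8 at a mean of 12.94 and Krt5 at 11.15, while the secretory prostate gene Pbsn was at 3.05. Pairs of Ras arrays had 185 to 332 genes at least 2-fold apart, against 3 to 31 in the other oncogene groups. Erbb2 was higher than control in the arrays labelled NeuT (log2 difference 1.72 ± 0.15 SE, adjusted p = 5.53e-07, limma). The Myc gene, by contrast, lay below control in arrays labelled Myc (-1.09 ± 0.19, adjusted p = 0.000406, limma), which goes against that label. It was highest in the NeuT arrays, with a mean of 10.97 against 9.87 in control and 8.78 in arrays labelled Myc. The Myc gene thus rose in NeuT against control (1.1 ± 0.19, adjusted p = 0.000433, limma). With the replicate number as a block that rise was 0.99, just under 2-fold. Whether these probe sets read the transduced copies is not given in the sources used here. Without Myc replicate 2 the Myc gene's difference from control in arrays labelled Myc was just under 2-fold. With all 3 control arrays that difference was -0.92. Src was at 7.08 in the arrays labelled Src and 7.15 in control, and Hras was not analysed here. Directions drawn for the arrays labelled Myc, Ras and Src therefore rest on the labels.

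**Figure D1:**
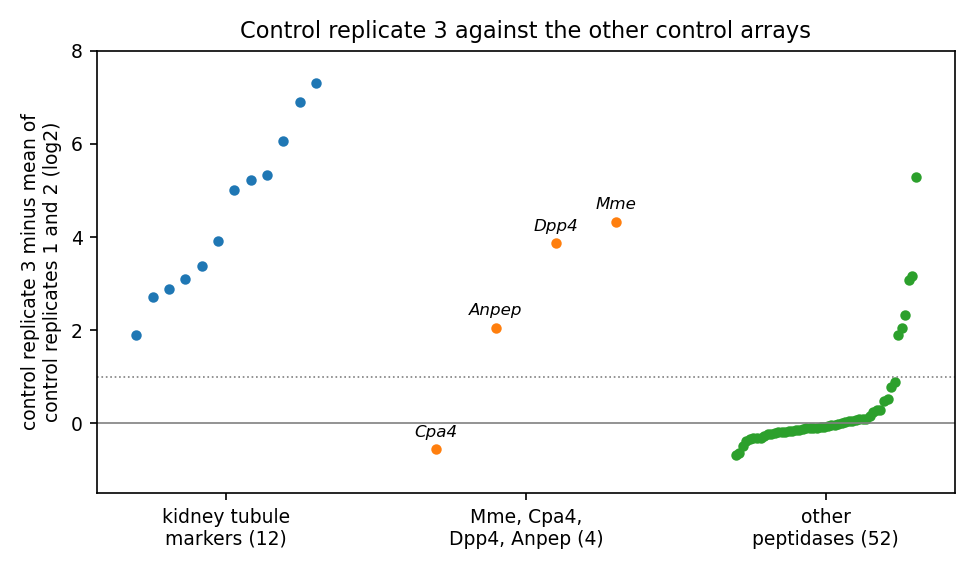
Level in control replicate 3 minus the mean of control replicates 1 and 2 (log2) for 12 kidney tubule markers, for Mme, Cpa4, Dpp4 and Anpep, and for 52 other peptidases, each set sorted by value. The dotted line marks 2-fold. All 12 kidney markers lie above it, as do Mme (4.33), Dpp4 (3.87), Anpep (2.05) and 6 of the other peptidases, while Cpa4 (-0.56) does not.

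Levels are the deposited log2 values, errors of levels are SD, and a difference of 1 is 2-fold. A gene was called, or said to rise or fall, where the adjusted p was under 0.05 and the difference at least 2-fold. Background signal was not measured, so levels below 6.47 may lie near it and fold changes that involve them are unsure in size. The 3 arrays of a group, 2 for control, set the precision. The replicates are not labelled as separate animals, so p-values measure the spread between these samples only. In these bulk samples fewer cells that express a gene and less RNA per cell cannot be told apart.

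Mme was high in NeuT and low in every other group. In the NeuT arrays it was at 10.95, 10.90 and 10.65. The control arrays 1 and 2 were both at 5.93. In the arrays labelled Myc the level was 5.86, 5.65 and 5.71. The NeuT arrays did not overlap any other group, and the remaining groups all lay under the median of all gene values. The Ras arrays were at 4.81, 4.96 and 5.02. The arrays labelled Src were at 5.30, 4.79 and 5.02 and overlapped those of Ras. The NeuT mean of 10.83 ± 0.16 (n = 3) exceeded the control mean by 4.90 (29.9-fold), the highest difference of all 19938 genes. It exceeded the mean of the Myc, Ras and Src groups by 5.60 (48.5-fold), which ranked 2. The gene was selected on its NeuT level, so these differences describe it and were not tested.

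The comparisons that leave NeuT out were tested. Mme fell in Ras against control, from 5.93 to 4.93 ± 0.11 (2-fold lower, log2 difference -1.0 ± 0.13 SE, adjusted p = 3.44e-05, limma), which sat at the 2-fold minimum. That call was lost without control replicate 2 (just under 2-fold), without Ras replicate 1 (-0.94), with median centring of the arrays (-0.93) and with the replicate number as a block (-0.98). In Src against control the difference was -0.90 ± 0.13 (adjusted p = 0.000147, limma), short of 2-fold, and it passed at -1.02 without Src replicate 1. In Myc against control it was -0.20 (95% interval -0.48 to 0.09, adjusted p = 0.349, limma). Myc lay above Ras by 0.80 and above Src by 0.70, and neither difference reached 2-fold. With control replicate 3 included, the difference of Ras from control was -2.44 (adjusted p = 0.0319, limma) and that of Src -2.34 (adjusted p = 0.0415, limma), and NeuT exceeded control by 3.46. Over all alternatives the limma adjusted p ran from 4.28e-06 to 0.0319 for Ras and from 1.26e-05 to 0.0415 for Src.

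Cpa4 was also highest in NeuT, but it followed a graded order over the groups. The NeuT arrays were at 10.94, 11.10 and 11.05. The arrays labelled Src came next at 8.80, 9.67 and 8.81. The arrays labelled Myc were at 8.15, 8.92 and 8.43, and their range overlapped that of Src. Control arrays 1 and 2 were at 7.07 and 6.45, and the Ras arrays were lowest at 5.14, 5.27 and 5.71. NeuT, control and Ras each stood apart from their neighbours in this order, while Src and Myc did not (log2 difference of Myc from Src -0.59, 95% interval -1.11 to -0.07, adjusted p = 0.0992, limma). The NeuT mean of 11.03 ± 0.08 (n = 3) was 4.27 above control (19.4-fold, rank 4 of 19938) and 1.94 above Src (3.84-fold, rank 91), as a description of the choice.

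Cpa4 thus differed from control in both directions among the groups that did not choose it. It rose in Src, from 6.76 ± 0.44 (n = 2) to 9.09 ± 0.50 (n = 3), a log2 difference of 2.33 ± 0.27 SE or 5.04-fold (adjusted p = 1.39e-05, limma). It rose in the arrays labelled Myc to 8.50 ± 0.39, by 1.74 ± 0.27 or 3.35-fold (adjusted p = 0.000144, limma). In Ras it fell to 5.37 ± 0.30, by -1.38 ± 0.27 or 2.61-fold (adjusted p = 0.00108, limma). Ras was 13.2-fold below Src (log2 difference -3.72 ± 0.24, adjusted p = 1.75e-08, limma). Ras was also below Myc, which exceeded it 8.74-fold (log2 difference 3.13 ± 0.24, adjusted p = 1.19e-07, limma). These 5 calls held under all 24 alternatives each. Control replicate 3, at 6.19, was just below the other controls for this gene.

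**Figure D2:**
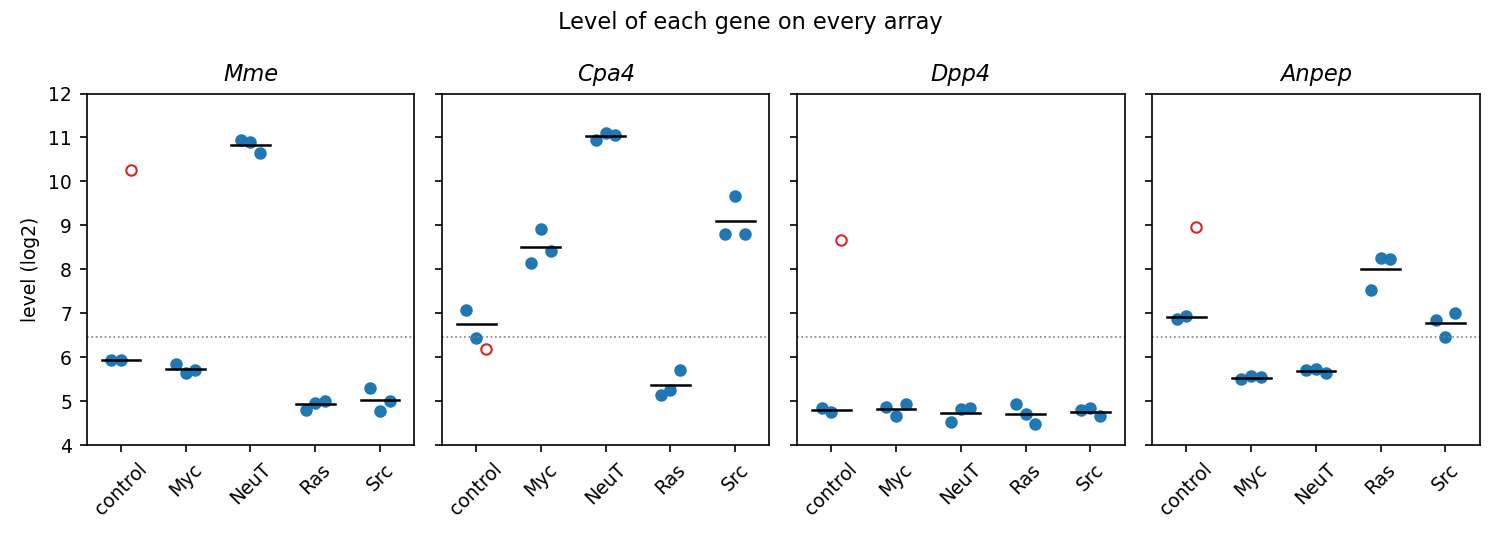
Level (log2) of Mme, Cpa4, Dpp4 and Anpep on each of the 15 arrays, by group. Points are arrays, the open red point is control replicate 3, bars are group means without it, and the dotted line is the median of all gene values (6.47). Among the 14 arrays used, Mme reaches 10.65 to 10.95 in NeuT alone, and Cpa4 falls in steps from NeuT to Ras. In those arrays Dpp4 stays between 4.49 and 4.93, and Anpep is highest in Ras. Control replicate 3 has Dpp4 at 8.67 and Anpep at 8.96.

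Promoter sequences of the pair that is high in NeuT are shown because their levels peak in the same group. RefSeq's table (GRCm38.p6) matched all 4 genes, with 3 start sites for Mme and 1 for each of the others. Printed are the 250 bases before the most upstream start of Mme (chr3:63294961-63295210, plus strand) and before the start of Cpa4 (chr6:30568119-30568368, plus strand), 5′ to 3′. Capitals mark matches to 4 motifs searched on both strands, which were the AP-1 site TGANTCA, the TATA box TATAAA, the E-box CACGTG and the ETS core CCGGAA.
Mme: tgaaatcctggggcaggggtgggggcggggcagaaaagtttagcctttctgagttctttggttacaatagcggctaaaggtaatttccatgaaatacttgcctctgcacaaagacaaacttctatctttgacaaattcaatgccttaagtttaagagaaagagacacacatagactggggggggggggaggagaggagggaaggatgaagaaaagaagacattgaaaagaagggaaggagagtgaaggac
Cpa4: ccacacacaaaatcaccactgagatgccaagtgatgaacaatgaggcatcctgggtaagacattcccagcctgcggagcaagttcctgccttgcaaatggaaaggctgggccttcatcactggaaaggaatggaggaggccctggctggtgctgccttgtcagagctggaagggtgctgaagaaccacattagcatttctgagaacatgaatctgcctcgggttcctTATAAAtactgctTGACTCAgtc
The Cpa4 window held TGACTCA starting 10 bases before the start and a TATAAA starting 23 bases before it, and these matches do not overlap. The upstream Mme window held none of the 4 motifs, and neither did the window of the middle Mme start (chr3:63295622-63295871, plus strand). A TGAGTCA began 215 bases before the most downstream Mme start (chr3:63295869-63295897, plus strand, 29 bases printed).
Mme downstream start: aatcccactggTGAGTCAccggagagcga
Of all 32851 windows of this length in the table, 6.75% held the AP-1 letters, 12.4% TATAAA, 6.02% CACGTG and 12.0% CCGGAA. These are shares of single windows, whereas 3 windows were searched for Mme. A match to letters is a description of the sequence, and binding was not measured.

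Dpp4 was low and flat over the 14 arrays. Control arrays 1 and 2 were at 4.85 and 4.75. The NeuT arrays were at 4.53, 4.82 and 4.85, and the Ras arrays at 4.93, 4.71 and 4.49. The arrays labelled Myc were at 4.88, 4.67 and 4.93, and those labelled Src at 4.81, 4.86 and 4.66. All neighbouring groups overlapped in the order of their means, which ran from 4.83 in Myc to 4.71 in Ras. Of the 6 tested comparisons 0 were called and 0 had an unadjusted p under 0.05 (adjusted p from 0.527 to 0.927, limma), and their 95% intervals lay between -0.37 and 0.37 on the log2 scale. These intervals exclude a 2-fold difference in the measured signal, at a level that may lie near background. In control replicate 3 it was at 8.67.

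Anpep ran in another order, with Ras on top and Myc and NeuT at the bottom. The Ras arrays were at 7.53, 8.25 and 8.24. Control arrays 1 and 2 were at 6.87 and 6.94, and the arrays labelled Src at 6.86, 6.47 and 7.02, which overlapped them. The NeuT arrays were at 5.72, 5.74 and 5.64, and the arrays labelled Myc at 5.50, 5.57 and 5.55. The latter groups did not overlap each other but differed by only 0.16 in their means. NeuT lay 1.21 below control in its mean (2.31-fold lower) and 2.31 below Ras (4.94-fold lower), given without a test.

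Anpep rose in Ras, from 6.91 ± 0.05 (n = 2) to 8.01 ± 0.41 (n = 3), by 1.1 ± 0.18 SE or 2.14-fold (adjusted p = 0.000286, limma). It fell in the arrays labelled Myc to 5.54 ± 0.04, by -1.37 ± 0.18 or 2.58-fold (adjusted p = 3.92e-05, limma). Src did not pass the test (log2 difference -0.13, 95% interval -0.52 to 0.27, adjusted p = 0.673, limma). Among the oncogene groups, Myc was 5.53-fold below Ras (log2 difference -2.47 ± 0.16, adjusted p = 2.34e-08, limma) and 2.37-fold below Src (-1.24 ± 0.16, adjusted p = 5.52e-05, limma). Ras was 2.34-fold above Src (1.23 ± 0.16, adjusted p = 3.92e-05, limma). The rise in Ras against control dropped under 2-fold without Ras replicate 2 (0.98) or Ras replicate 3 (0.99) and with array weights (0.86). With control replicate 3 included it was 0.42 (adjusted p = 0.501, limma, with a range of 3.88e-06 to 0.501 over all alternatives), since Anpep was at 8.96 in that array.

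Anpep was highest in another group, and printed for it are the 250 bases before the single Anpep start (chr7:79848211-79848460, minus strand). None of the 4 motifs was found in this window. The Dpp4 window (chr2:62412232-62412481, minus strand) held a TATAAA starting 227 bases before the start, and none of the other 3 motifs.
Anpep: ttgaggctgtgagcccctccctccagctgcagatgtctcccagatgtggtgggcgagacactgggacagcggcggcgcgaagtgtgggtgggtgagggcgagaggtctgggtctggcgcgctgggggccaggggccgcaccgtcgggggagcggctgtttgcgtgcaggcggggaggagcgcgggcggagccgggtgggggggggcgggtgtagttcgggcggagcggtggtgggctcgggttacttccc

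**Figure D3:**
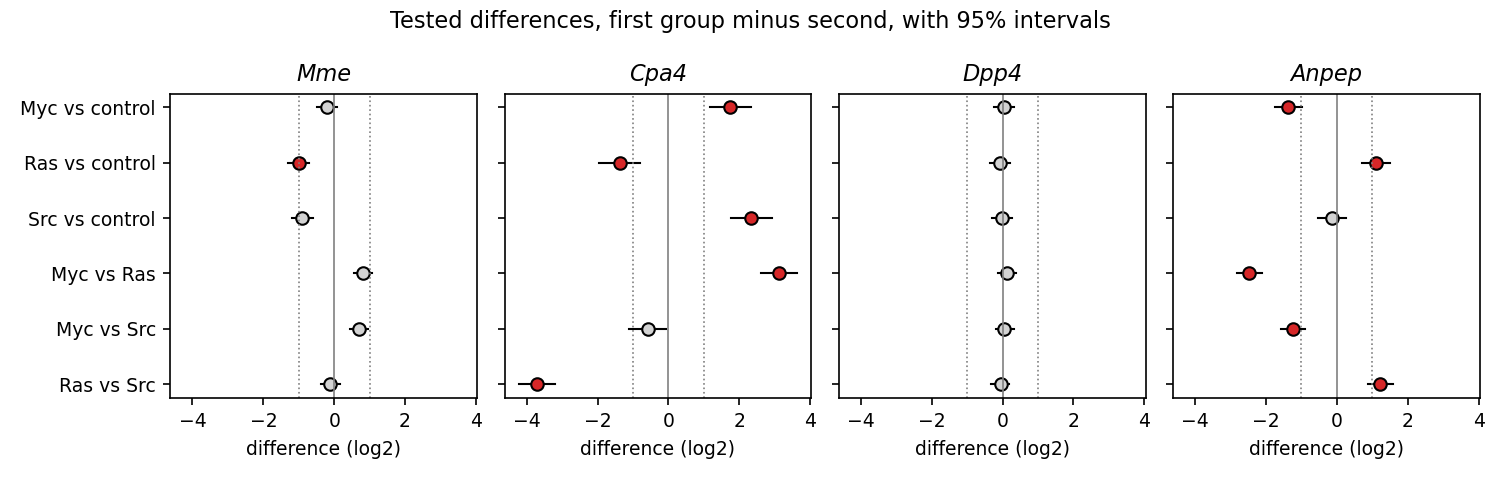
Tested log2 differences of Mme, Cpa4, Dpp4 and Anpep in the 6 comparisons that leave NeuT out, first group minus second, with 95% intervals from limma. Red points were called (adjusted p under 0.05, 2-fold or more), and dotted lines mark 2-fold. Cpa4 and Anpep each passed in 5 of 6 comparisons, Mme in 1 and Dpp4 in 0.

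In all, 24 comparisons of these genes were tested, each adjusted over all genes. In Myc against control 2.6% of all genes rose and 3.6% fell, and of the 4 peptidases Cpa4 rose and Anpep fell. In Ras against control 2.91% rose and 3.97% fell, and Anpep rose while Cpa4 and Mme fell. In Src against control 1.38% rose and 2.98% fell, and Cpa4 rose. Between Myc and Ras 3.07% of genes were higher in Myc and 3.12% lower, and Cpa4 was higher and Anpep lower. Between Myc and Src 1.39% were higher in Myc and 1.78% lower, and Anpep was lower. Between Ras and Src 3.01% were higher in Ras and 2.56% lower, and Anpep was higher and Cpa4 lower. Cpa4 and Anpep moved in opposite directions in both Myc and Ras. These comparisons share the same control arrays, so their agreement or contrast is not independent.

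Markers of other cell types that carry these enzymes were read beside these results. Leukocytes bear neprilysin, CD13 and CD26, and 0 of 9 leukocyte markers had a group mean at least 2-fold above control in any oncogene group. The mean level of the 9 markers lay between 5.39 and 5.56 over the 14 arrays. The pan-leukocyte gene Ptprc had group means from 4.80 to 4.84. Fibroblasts carry CD13, and in the Ras arrays, where Anpep was highest, 1 of 10 fibroblast markers rose (Dcn, 8.17 against 6.86, adjusted p = 0.0018, limma) and 1 fell (Postn, 4.35 against 5.78, adjusted p = 3e-08, limma). Over all genes 2.91% rose and 3.97% fell in Ras against control. The mean level of the 10 markers was 6.10 to 6.42 in the Ras arrays and 6.17 to 6.21 in control. Of the 8 that were not called, Col3a1 was at 6.81 in Ras against 6.31 in control (log2 difference 0.50, adjusted p = 0.000695, limma), and the other 7 differed from control by -0.25 to 0.21. Of 6 smooth muscle markers, 3 (Tagln, Acta2 and Cnn1) fell in each oncogene group by limma and the other 3 were not called. Over all genes 2.98% to 3.97% fell in these comparisons with control. The mean level of the 6 was 5.74 to 6.52 in the Ras arrays and 7.40 to 7.65 in control. The 8 luminal markers averaged 6.49 to 7.36 in the Ras arrays, 8.36 to 8.90 in the other oncogene arrays and 9.32 to 9.34 in control. The 7 basal markers averaged 5.67 to 5.80 in Ras, 6.12 to 6.21 in NeuT, 7.42 to 7.53 in Myc, 9.64 to 9.88 in Src and 9.81 to 9.86 in control. Their part in the levels of Cpa4, Mme and Anpep was not tested.

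Other peptidases of the same families were mostly not called. Of 52 measured, 2 rose and 3 fell in NeuT against control, where 2.47% of all genes rose and 3.07% fell. In Ras 3 rose and 2 fell, beside 2.91% and 3.97% of all genes. In Myc 1 rose and 1 fell (2.6% and 3.6% of all genes), and in Src 0 rose and 1 fell (1.38% and 2.98%). At an unadjusted p under 0.05 by limma, 11 of 52 were higher and 8 lower in Src, and 11 and 7 in Myc. Ras had 11 higher and 14 lower, and NeuT 7 and 11. Median log2 differences of the 52 were from -0.02 to 0.06, beside 0.01 to 0.05 over all genes. Against the mean of the other oncogene groups 0 rose in NeuT and 4 fell, where 1.52% and 0.953% of all genes did. In NeuT against Myc 0 rose and 2 fell (1.53% and 0.848% of all genes), against Ras 1 rose and 3 fell (3.31% and 2.72%), and against Src 0 rose and 3 fell (1.98% and 1.62%). At an unadjusted p under 0.05 by limma, 8 of the 52 were higher and 11 lower in NeuT than in the mean of the others. Against Myc 3 were higher and 10 lower, against Ras 12 and 12, and against Src 7 and 9. The share of all genes at that p is not given here. With 0 to 3 calls in each direction, at most 5.77% of the 52, the comparisons with control lie near the background of all genes.

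Among the 6 relatives of neprilysin, Ece1 alone was called. Against control Ece1 fell in NeuT and Ras, where 3.07% and 3.97% of all genes fell. It encodes an endothelin-converting enzyme, which makes the active peptide that neprilysin degrades. Ece1 fell in NeuT, from 7.83 ± 0.09 (n = 2) to 6.01 ± 0.04 (n = 3), by -1.82 ± 0.12 SE (adjusted p = 4.96e-08, limma). In Ras it fell to 5.90 ± 0.28, by -1.93 ± 0.12 (adjusted p = 1.33e-08, limma). It was at 8.65 ± 0.06 in Src and 7.46 ± 0.08 in Myc. The difference of NeuT from the mean of the other oncogenes was -1.32 ± 0.09 (adjusted p = 6.49e-08, limma). Ras had the lowest mean of both Ece1 and Mme, whereas NeuT had a low Ece1 and the highest Mme.

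Among 13 further carboxypeptidases and their relatives, Cpm fell in all 4 oncogene groups. Cpm is a membrane carboxypeptidase that removes basic residues. It was at 6.97 ± 0.54 (n = 2) in control, 4.89 ± 0.30 in Ras and 5.44 to 5.52 in the other group means, with log2 differences from -2.07 to -1.44 (adjusted p from 8.66e-06 to 0.000399, limma). Cpd, the carboxypeptidase of the trans-Golgi, rose in NeuT by 1.08 ± 0.11 and in Ras by 1.48 ± 0.11 (adjusted p = 4.32e-06 and 1.06e-07, limma). Aebp1, a secreted protein with a carboxypeptidase-like domain, rose in Ras from 6.33 ± 0.01 to 8.71 ± 0.15, by 2.38 ± 0.12 (adjusted p = 6.77e-10, limma). Aebp1 and Cpa4 moved apart in Ras, the former up and the latter down. Cpe, the carboxypeptidase of prohormone processing, was at 10.05 in control and 10.61 to 11.01 in the oncogene groups, short of 2-fold in each.

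Of 10 peptidases related to Dpp4, 0 were called against control by limma in any of the 4 comparisons. Over all genes 1.38% to 2.91% rose and 2.98% to 3.97% fell there, so 0 of 10 lies near the background. At an unadjusted p under 0.05, 3 to 5 of them differed in each comparison. The share of all genes at that p is not given here. Fap, the fibroblast activation protein and closest homologue of Dpp4, had group means from 4.13 to 4.17. Dpp7, a lysosomal dipeptidyl peptidase, was at 6.11 ± 0.29 (n = 3) in NeuT and 6.95 to 7.33 in the other groups. Its difference from the mean of Myc, Ras and Src was -1.02 ± 0.10 (adjusted p = 2.42e-06, limma), and it was -0.86 without NeuT replicate 2.

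Of 9 aminopeptidases related to Anpep, 0 rose and 1 fell in NeuT against control, beside 2.47% and 3.07% of all genes. In Ras 1 rose and 0 fell, beside 2.91% and 3.97%. In Myc and Src 0 were called by limma. At an unadjusted p under 0.05 by limma, 1 of the 9 was higher and 3 lower in NeuT, and 1 and 4 in Ras. In Myc 1 was higher and 1 lower, and in Src 0 and 1. The share of all genes at that p is not given here. Erap1, which trims peptides for MHC class I molecules, fell in NeuT to 5.79 ± 0.08 from 7.39 ± 0.12, by -1.60 ± 0.24 (adjusted p = 0.000133, limma), and lay -1.58 ± 0.18 from the mean of the other oncogenes (adjusted p = 9.61e-06, limma). Lvrn, or laeverin, rose in Ras from 4.68 ± 0.02 to 6.0 ± 0.08, by 1.32 ± 0.10 (adjusted p = 1.25e-07, limma), and both levels lie below the median of all gene values. Anpep and Lvrn were thus both higher in Ras, and Anpep and Erap1 both lower in NeuT in their means. Enpep, which cleaves angiotensin, had group means from 5.03 to 5.13.

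Among 14 other peptide-trimming enzymes, Thop1, a cytosolic oligopeptidase, rose in NeuT by 1.42 ± 0.12 and in Myc by 1.27 ± 0.12 (adjusted p = 5.78e-07 and 1.55e-06, limma). It was at 8.23 ± 0.17 and 8.09 ± 0.04 there and at 6.82 ± 0.09 in control. Its relative Nln and the cytosolic dipeptidyl peptidase Dpp3 were not called against control and were 2.26-fold and 2.18-fold higher in Myc than in Ras (adjusted p = 2.39e-07 and 5.93e-07, limma).

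Latexin, encoded by Lxn, is a protein inhibitor of A-type carboxypeptidases, the class of Cpa4. It fell in Ras from 9.05 to 7.81 ± 0.29 (log2 difference -1.25 ± 0.13, adjusted p = 1.88e-06, limma) and in Myc to 7.83 ± 0.07 (-1.22 ± 0.13, adjusted p = 2.90e-06, limma). In NeuT, where Cpa4 was highest, Lxn was at 8.31 ± 0.08 (-0.75 ± 0.13), and in Src at 8.13 ± 0.05 (-0.92 ± 0.13), both short of 2-fold. Lxn was thus below control in both the groups with more and the group with less Cpa4. Its relative Rarres1 had group means from 4.95 to 5.19, and Lxn was the only call among the 5 inhibitors in the 4 comparisons with control. In Myc and Ras, where Lxn was called, 3.6% and 3.97% of all genes fell. A single gene of 5 does not describe the list.

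RNA levels of genes for peptides that these enzymes are known to cut fell or did not pass against control, and peptides were not measured. Of these genes 0 of 28 rose by limma, with 0 to 4 higher and 7 to 9 lower at an unadjusted p under 0.05. In NeuT and in Myc 6 of 28 fell, in Ras 4 and in Src 3, beside 3.07%, 3.6%, 3.97% and 2.98% of all genes. Their median log2 differences were from -0.07 to 0.06, beside 0.01 to 0.05 over all genes. Edn1, the precursor of endothelin 1 and so of a neprilysin substrate, fell in all 4 groups. It was at 10.76 ± 0.01 (n = 2) in control, 7.49 ± 0.10 in NeuT, 7.30 ± 0.14 in Myc, 6.61 ± 0.16 in Src and 5.65 ± 0.10 in Ras. The log2 differences ran from -3.27 ± 0.11 in NeuT to -5.11 ± 0.11 in Ras (adjusted p = 4.49e-11 and 8.78e-14, limma). Adm, the vasodilator adrenomedullin, fell in NeuT, Myc and Ras by -1.54, -1.44 and -1.57, and was at 6.43 in Src against 7.23 in control. Nppb, a natriuretic peptide, fell in NeuT, Myc and Src by -1.15, -1.72 and -1.68. Nts, the neurotensin precursor, fell in NeuT, Myc and Ras by -1.72, -1.68 and -1.5. App, the amyloid precursor whose peptide neprilysin degrades, fell by -1.04, -1.32 and -1.41 in the same groups. Ccl5, a chemokine cut by Dpp4, fell in NeuT, Myc and Src by -1.81, -1.75 and -2.03 and was at 9.58 in Ras against 9.19 in control.

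Of 24 receptors of these peptides, Npr3, which clears natriuretic peptides, fell in all 4 groups, from 7.84 ± 0.08 in control to group means of 5.62 to 5.90. Npr2 fell in NeuT and Myc by -1.16 and -1.21. Ackr3, a scavenger receptor for Cxcl12 and adrenomedullin, rose in Myc, NeuT and Src by 1.73, 1.44 and 1.59 and was at 6.59 in Ras against 6.62 in control. Calcrl, the shared receptor of adrenomedullin and calcitonin gene-related peptide, rose in Ras from 4.93 ± 0.23 to 9.92 ± 0.36, by 4.99 ± 0.16 (adjusted p = 7.96e-12, limma). In NeuT 1 of 24 receptors rose and 2 fell, beside 2.47% and 3.07% of all genes, and in Myc likewise 1 and 2, beside 2.6% and 3.6%. In Ras 1 rose and 1 fell, beside 2.91% and 3.97%, and in Src 1 and 1, beside 1.38% and 2.98%. Counts this small lie near the background.

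**Figure D4:**
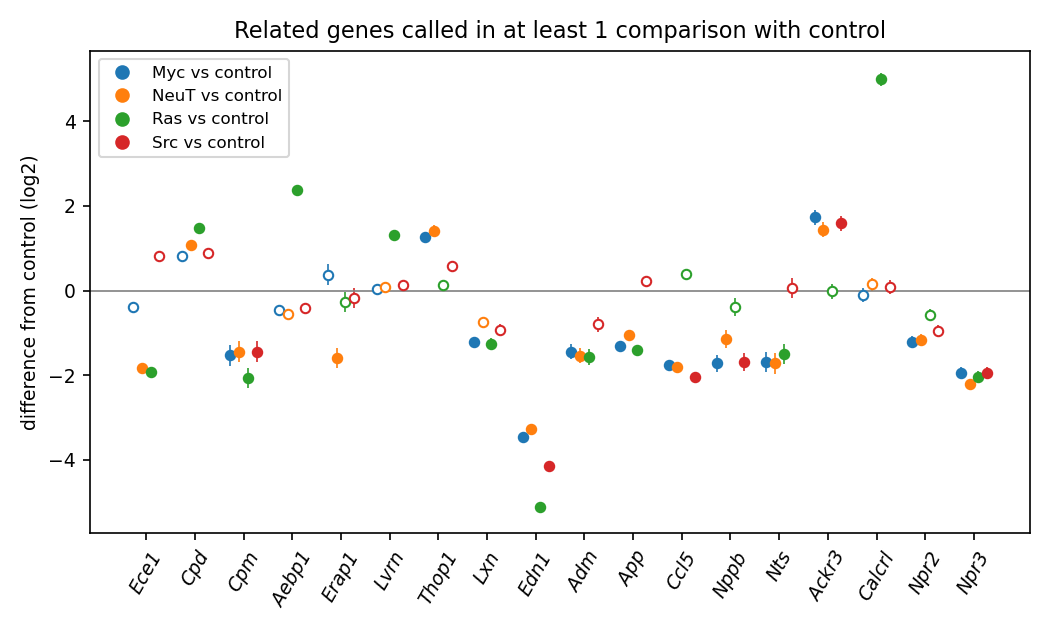
Log2 difference from control, with SE bars, of the genes for related peptidases, an inhibitor, peptides and receptors. Each was called in at least 1 of the 4 comparisons. Filled points were called (adjusted p under 0.05, 2-fold or more), open points were not. Edn1, Cpm and Npr3 lie below control in all 4 groups, and Calcrl and Aebp1 rise in Ras.

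Genes with the nearest profile were found by the root mean square difference (log2) between centred levels over the 14 arrays. For Mme the nearest were Defb41, a beta-defensin (1.09), Il23a, the p19 subunit of interleukin 23 (1.21), and Itm2a, a membrane protein (1.21). Mme itself varied by 2.28 about its mean, so these profiles are only loosely alike. Defb41 was at 7.47 ± 0.66 (n = 3) in NeuT and 4.02 to 4.42 in the other group means. For Cpa4 the nearest were Il23a (0.88), the mitochondrial carrier gene Slc25a48 (0.89) and Tmprss11e, a membrane serine protease (1.00), where Cpa4 varied by 2.00. Il23a was at 10.32 ± 0.27 in NeuT, 8.53 ± 0.15 in Myc, 7.20 ± 0.23 in Src, 6.71 ± 0.17 (n = 2) in control and 5.75 ± 0.10 in Ras. The profiles of Mme and Cpa4 differed from each other by 1.58. For Anpep, which varied by 0.95, the nearest were the metallothionein gene Mt2 (0.30), Dzip1 of the cilium (0.33) and the interleukin 13 receptor gene Il13ra1 (0.33). Mt2 was at 10.96 ± 0.31 in Ras, 10.21 ± 0.03 in control, 9.93 ± 0.11 in Src, 9.31 ± 0.21 in NeuT and 8.66 ± 0.29 in Myc. Dpp4 varied by 0.13 about its mean, and its nearest genes, Slc26a1, Ooep and Lpo (0.08 each), were also flat.

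**Figure D5:**
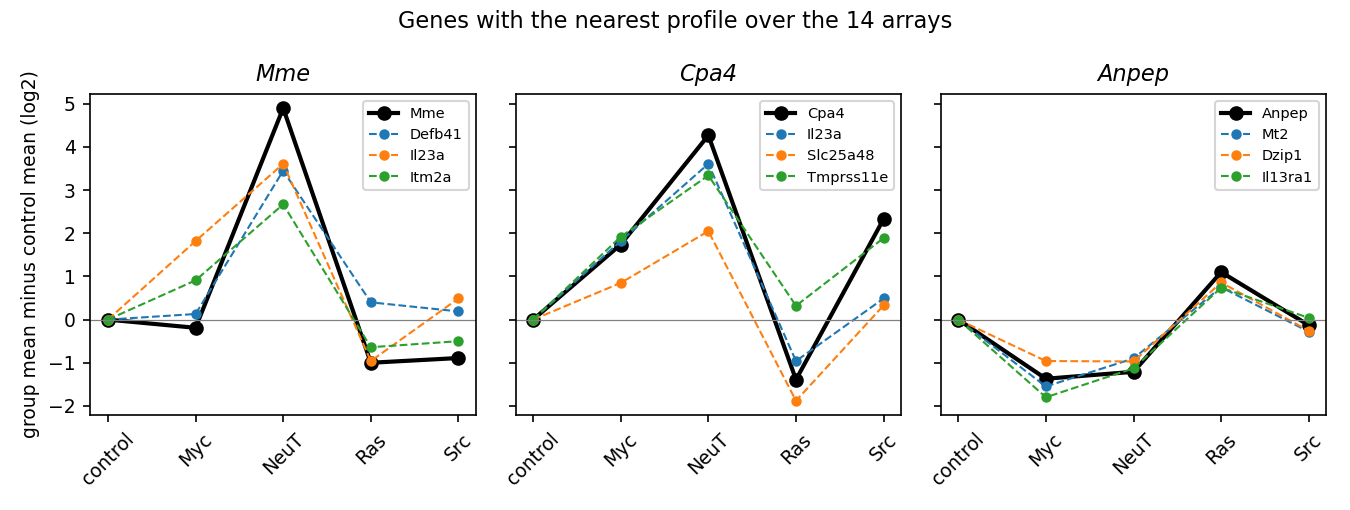
Group means minus the control mean (log2) of Mme, Cpa4 and Anpep (black) and of the 3 genes with the nearest profile over 14 arrays (dashed). Mme, chosen for its NeuT level, peaked there at 4.90 above control, rank 1 of 19938 genes, so its nearest genes necessarily lie lower. The nearest genes of Mme and Cpa4 were picked for likeness to genes chosen on NeuT, so their NeuT levels describe that choice. Mt2, Dzip1 and Il13ra1 were picked for their small difference from Anpep, so their closeness to it describes that choice.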

How the data were processed

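RNA of 15 mouse samples was measured on arrays, with biotin as the label. The authors deposited log2 values, already normalized. The submitters' processing notes list RMA and Affymetrix Expression Console 1.1, without their roles. How background was treated, and the genome build, is not given in the sources used here. Of 35556 probe sets, 21789 had 1 gene in the platform annotation, which can be old, 1621 had several and 12146 had none. The brightest single-gene probe set by mean was used for each of 19938 genes, and Entrez identifiers matched 21698 probe sets to RefSeq. No filter on low values was applied.

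Group means were fitted to 14 arrays, without control replicate 3, using lmFit and eBayes of limma 3.58.1 (R 4.3.3). Two-sided p-values were adjusted over the 19938 genes (Benjamini-Hochberg), and a call needed an adjusted p under 0.05 and a 2-fold difference. Comparisons with NeuT were not tested for the 4 genes, since levels in NeuT chose 2 of them. Named genes were the 4 genes, the transduced genes, Lxn and Rarres1, up to 3 called genes in each direction of each list by smallest p, the 3 nearest profiles of each gene, and up to 3 markers of each cell type. Some genes were named after their values were seen. These were others with values below the threshold, such as Cpe, Fap and Enpep, and the markers Dcn, Postn, Col3a1 and Cubn. The promoter motifs were also chosen after values were seen. The members and lists were chosen with earlier results of these data known. The fit was tested on simulated data. The 11 alternatives included other normalizations, filters and variance models, all 3 control arrays, the replicate number as a block and leaving out each array in turn. Python 3.11.15 with matplotlib 3.10.9 drew the figures, using pandas 2.3.3 and numpy 2.4.6.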

Additional observations from a re-analysis of the deposited data

Results flagged for a closer look

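Control replicate 3, left out of the comparisons except in the alternative with all 3 control arrays, carried 3 of the 4 peptidases far above the other controls. Mme was at 10.26 there, 4.33 (log2) above the higher of control replicates 1 and 2. Dpp4 was at 8.67, 3.82 above, and Anpep at 8.96, 2.02 above. Cpa4 was at 6.19 in this array and at 7.07 and 6.45 in the others. The share of all genes that were 2-fold or more above the other controls here was 3.44%. Of the 52 other peptidases, 6 were (Enpep, Ace, Dpep1, Mep1a, Mep1b and Folh1), and of the 12 kidney tubule markers 12 were. The meprin subunit gene Mep1a, at 9.48 against 4.2, and the aminopeptidase gene Enpep, at 8.17 against 5.09, are brush border enzymes of the kidney, whereas both were low on the other arrays. The NeuT arrays had Mme at 10.65 to 10.95 with kidney marker means of 5.59 to 5.63, against 9.99 in control replicate 3. Of these 12 markers, 0 were called in NeuT against control, where 2.47% of all genes rose and 3.07% fell. At an unadjusted p under 0.05 by limma, 1 of the 12 was higher and 0 lower. Cubn was at 6.28 ± 0.08 in NeuT, 5.37 ± 0.25 in control replicates 1 and 2 and 9.28 in control replicate 3. A link between these levels and Mme was not tested.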

How the results depend on the processing

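Each of the 24 tests was repeated under 10 other settings and without each of 14 arrays where the gene was still tested. Cpa4 kept its 5 calls in 120 of 120 repeats and Anpep its 5 in 115 of 120, and Mme kept its 1 call in 20 of 24. With all 3 control arrays, Dpp4 in Myc against control turned to -1.26, Anpep in Ras against control lost its call at 0.42, Mme in Src against control gained one at -2.34, and NeuT minus control moved to 3.46 for Mme, -1.35 for Dpp4 and -1.89 for Anpep. With median centring, Mme in Ras against control was -0.93 and lost its call, and Dpp4 in Ras against Src turned to 0.01. With array weights, Anpep lost its calls in Ras against control (0.86) and Ras against Src (0.96), and Dpp4 turned in Ras against control (0.02), Myc against Ras (-0.02) and Ras against Src (0.05). Without the fold minimum, Mme passed in Src against control (-0.90), Myc against Ras (0.80) and Myc against Src (0.70). The counts of genes called then rose to 5516, 5031, 5323 and 4928 for Myc, NeuT, Ras and Src against control, and to 4885 for NeuT against the other oncogenes. They were 6370 for Myc against Ras, 4544 for Myc against Src and 6021 for Ras against Src, and 3685, 6269 and 4716 for NeuT against Myc, Ras and Src, since small changes then count. The cause of the other shifts was not tested.

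Leaving out 1 array at a time gave -1.04 to -0.94 for Mme in Ras against control, -1.02 to -0.77 in Src against control and -0.23 to 0.02 in Ras against Src. Anpep ran from 0.98 to 1.34 in Ras against control and from -0.24 to 0.03 in Src against control. Dpp4 ran from -0.02 to 0.11, -0.19 to 0.02 and -0.07 to 0.04 in Myc, Ras and Src against control, and from -0.01 to 0.13 in Myc against Src and -0.17 to 0.05 in Ras against Src. Of 104 calls of related and transduced genes, 8 were lost in at least 1 of the repeats and 0 reversed. These were Myc in Myc and NeuT against control, Dpp7 in NeuT against the other oncogenes, Cxcl10 in Myc, NeuT and Src compared with Ras, Ramp3 in Ras against Src and Erap1 in NeuT against Ras.

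The evidence on whether replicate numbers pair the samples is mixed. The labels give no shared batch or animal, and same-numbered arrays of different groups deviated together with r over 0.1 in only 3 of 26 pairs (median 0.0201), so the numbers were not taken as pairs. However, 10 of 14 arrays correlated best with their own number, a hint from the data and not from the design. With the replicate number as a block, counts of calls were 1.00 to 1.01 times those without, and Mme in Ras against control was -0.98, just under 2-fold. No depth is known for arrays, and levels below 6.47 may lie near background.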
